A study of Homo sapiens with 6 samples.

Results

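The genes of the BCL2 family that set whether a cell starts mitochondrial apoptosis were examined in K562 cells after knockdown of the long noncoding RNA lncRNA-IUR-5. The group consists of MCL1, BCL2L1, BCL2, BCL2L11, BAX, BAK1, BID, BAD, BBC3 and PMAIP1, chosen by name, and makes up 10 of the 19053 genes with a symbol in the deposited table and 68 of its 109018 rows, each row being 1 RefSeq protein accession. K562 is an established human erythroleukemia line that carries the BCR-ABL fusion kinase. 3 libraries (sh-IUR-5) came from K562 cells with an shRNA against this lncRNA, which the labels call sh-lncRNA-IIRX, and 3 libraries came from K562 cells with sh-luc, an shRNA against luciferase. All 6 came from stable lines made with the lentiviral vector pSIH-H1-GFP, and the sources used here do not say whether a line was a single clone. Libraries 2 and 3 of each group are numbered 2_1 and 2_2 of 1 series in the labels, so p-values may in part measure technical spread. The study describes 3 independent groups of cells.

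BCL2 family proteins meet at the outer mitochondrial membrane. MCL1, BCL-XL (the long product of BCL2L1) and BCL2 keep cells alive by holding the other members, BAX and BAK (BAK1) form the pores that release cytochrome c, and the BH3-only proteins BIM (BCL2L11), BID, BAD, PUMA (BBC3) and NOXA (PMAIP1) carry stress and kinase signals to both. In BCR-ABL leukemia, STAT5 downstream of the kinase is known to keep MCL1 and BCL2L1 transcribed, and kinase signaling keeps BIM and BAD in check. MCL1 and BIM proteins are short-lived and are also set after transcription, which read counts do not show. Since the study asked how lncRNA-IUR-5 affects leukemic cell survival, the comparison asks which of these genes differed in RNA level between knockdown and control cells.

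The total reads on accessions ran from 21023739 to 31481109 per library. All 13 markers listed for K562, including GATA1 and the fetal globins HBG1 and HBG2, reached at least 1 RPKM (reads per coding length and total reads), and CDKN2A, which K562 lacks, had 0 reads in all 6 libraries. Markers of T cells and fibroblasts stayed under 1 RPKM, as did CD14, CDH1, MS4A1 and ALB, whereas LYZ (78.4 to 94.7 RPKM) and the epithelial genes EPCAM, KRT8 and KRT19 were abundant in both groups. The rows are proteins, so lncRNA-IUR-5 itself was not analysed here. RPKM is scaled to total reads, and the main test (edgeR's quasi-likelihood test) also uses TMM, a scaling that centres most genes on no change. The TMM factors differed between the groups (0.922 to 0.939 in sh-luc and 1.05 to 1.12 in sh-IUR-5), so that without them the median log2 fold change over all 11556 genes tested was 0.22 in place of 0.02. The summed RPKM of the K562 markers, mostly globin, moved with this and was 20625 to 23005 in sh-luc and 16598 to 17263 in sh-IUR-5, and its part in the results was not tested. With TMM 2682 genes were higher (23.2%) and 2363 lower (20.4%) at an adjusted p under 0.05, against 4560 higher (39.5%) and 1114 lower (9.64%) with total reads alone. Calls of the members and counts for the lists are therefore given on both scales. Log2 fold changes are with TMM where no other fit is named.

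Isoforms of MCL1 and BCL2L1 frame the results, and the coding stretch that separates their forms is shown in capitals, read from hg38 at GENCODE release 44 coordinates. In MCL1, the exon chr1:150578244-150578491 (minus strand) is in the 1053-base form, the pro-survival protein, and not in the 816-base form. In BCL2L1, the stretch chr20:31721655-31721843 (minus strand) is in the 702-base form (BCL-XL) and not in the 513-base form (BCL-XS, which promotes death). The 20 coding bases on each side are in lower case.
MCL1: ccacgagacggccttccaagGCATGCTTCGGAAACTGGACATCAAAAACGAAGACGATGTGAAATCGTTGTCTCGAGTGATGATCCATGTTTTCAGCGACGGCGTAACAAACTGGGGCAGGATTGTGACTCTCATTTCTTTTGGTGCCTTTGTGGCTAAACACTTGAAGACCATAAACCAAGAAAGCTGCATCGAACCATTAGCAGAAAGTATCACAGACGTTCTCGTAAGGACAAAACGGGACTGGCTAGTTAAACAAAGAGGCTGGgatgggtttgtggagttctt
BCL2L1: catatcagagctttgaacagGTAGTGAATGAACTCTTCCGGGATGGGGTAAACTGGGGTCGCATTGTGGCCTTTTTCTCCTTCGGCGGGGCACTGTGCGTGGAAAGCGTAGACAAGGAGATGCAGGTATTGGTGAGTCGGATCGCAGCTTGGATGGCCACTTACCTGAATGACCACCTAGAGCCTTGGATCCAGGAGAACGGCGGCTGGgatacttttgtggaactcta
A similarity search of hg38 found 0 other alignments over at least 80% of the MCL1 exon. The BCL2L1 stretch had 1 other alignment of this length, with 69.8% identity.

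By summed RPKM, 3 of the 10 members (MCL1, BCL2L1 and BAK1) had all knockdown values above all control values, as did 44.7% of all genes tested, and 1, the BCL2L11 sum, had all of them below, as did 12.3%. Of the 10 members, 9 had the mean of at least 10 reads per library that the test required. MCL1 was higher in sh-IUR-5 (1 gene, against 23.2% of all genes tested), BAX, BID, BAD and the BCL2L11 sum were lower (4 genes, against 20.4%), and BCL2L1, BAK1, BBC3 and PMAIP1 did not pass. The median log2 fold change of the 9 was 0.07, beside 0.02 for all genes. Scaled to total reads, MCL1, BCL2L1 and BAK1 were higher (39.5% of all genes) and the BCL2L11 sum alone was lower (9.64%). Of the 9 members, only MCL1 had the same direction and call under all of its alternatives, 19 in number, and the BCL2L11 sum had both under 19 of 20. Those 19 all kept the row NP_619531.1, which held most reads of BCL2L11, and the direction reversed in the 1 that left it out. In bulk libraries, a change in RNA per cell and in the share of cells that express a gene cannot be told apart.

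**Figure D1:**
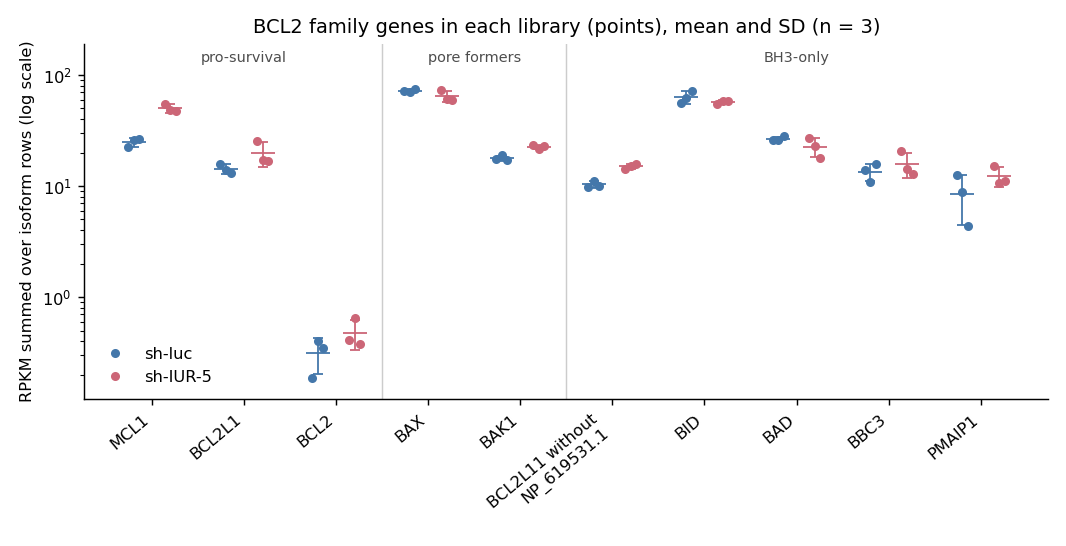
RPKM summed over the isoform rows of each BCL2 family gene on a log axis, with 1 point per library, and the mean with its SD (n = 3 per group). The 3 sh-IUR-5 points of MCL1 (47.1 to 55.1) lie above all sh-luc points (22.3 to 26.7), those of BCL2L1, BAK1 and BCL2L11 without NP_619531.1 lie above theirs more narrowly, and the groups of BAX, BID, BAD, BBC3, PMAIP1 and BCL2 overlap.

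MCL1 (ENSG00000143384.14, chr1:150560895-150579738, minus strand) encodes a short-lived pro-survival protein on which many leukemias depend. Its 3 rows together held 431, 452 and 475 reads in sh-luc libraries 1, 2 and 3 and 1447, 975 and 964 in sh-IUR-5 libraries 1, 2 and 3. Per length and total reads this was 22.3, 25.8 and 26.7 RPKM in sh-luc and 55.1, 48.3 and 47.1 RPKM in sh-IUR-5. Every knockdown library thus stood above every control library, and the means were 24.9 ± 2.33 and 50.2 ± 4.34 RPKM (SD, n = 3), a ratio of 2.01 (exact permutation test, two-sided, p = 0.1, and 3 libraries against 3 cannot give less). With TMM the log2 fold change was 0.80 ± 0.09 (SE, edgeR adjusted p = 4.94e-05), a 1.74-fold rise with a 95% interval of 0.60 to 1.01 on the log2 scale. The log2 fold change ran from 0.72 to 1.01 over the 19 alternatives. Both the row of the 1053-base form (NP_068779.1, log2 fold change 0.80) and that of the 816-base form (NP_877495.1, log2 fold change 0.82) rose, as did the 594-base row (NP_001184249.1, log2 fold change 0.84), and no difference between the rows passed (edgeR row test, adjusted p = 1.0). The rows share most of their coding sequence, and the rule by which a shared read was given to a row is not stated.

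BCL2L1 (ENSG00000171552.14, chr20:31664452-31723989, minus strand) encodes BCL-XL, which shields erythroid cells among others. Its 8 rows summed to 15.8, 13.9 and 13.1 RPKM in sh-luc and 25.7, 17.3 and 16.7 RPKM in sh-IUR-5. The groups did not overlap, and sh-IUR-5 library 1 stood apart as the highest. With TMM the log2 fold change of 0.27 ± 0.14 (SE, 95% interval -0.05 to 0.58) did not pass (edgeR adjusted p = 0.15), whereas with total reads it was 0.48 (edgeR adjusted p = 0.028). At unchanged TMM scaling it was 0.26 and passed with the series of the labels (library 1 against libraries 2 and 3) as a term (edgeR adjusted p = 0.026) and with the replicate number as a block (edgeR adjusted p = 0.041). Without sh-IUR-5 replicate 1 the log2 fold change was 0.07 with TMM (edgeR adjusted p = 0.65). Of the 8 rows, only NP_612815.1 passed, with a log2 fold change of 0.62 (edgeR adjusted p = 0.047), and it is 1 of 7 rows with the same coding length of 702 bases. Those 7 rows held between 17 and 78 reads per library, with a chi-square of 1.27 per degree of freedom against an even split, where 1 is sampling noise. The log2 fold change of the 8 rows ran from -0.15 to 0.62, and the row test found no difference between them (edgeR adjusted p = 1.0). The 513-base row NP_001182.1, of the length of BCL-XS, had a log2 fold change of 0.51 and did not pass (edgeR adjusted p = 0.20). Coding bases of BCL2L1 overlap an exon of ABALON, a lncRNA on the other strand.

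BCL2, the founding pro-survival gene (ENSG00000171791.14, chr18:63123346-63320128, minus strand), was nearly silent here. Its 3 rows held 3, 6 and 5 reads in sh-luc and 9, 11 and 6 reads in sh-IUR-5, which is 0.19 to 0.41 and 0.38 to 0.65 RPKM. It was left out of the main test for low counts, and in the fit without that minimum the log2 fold change was 0.39 (edgeR adjusted p = 0.64). A change of BCL2 was not detectable at this depth.

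Of the pore formers, BAX (ENSG00000087088.21, chr19:48954815-48961798, plus strand) was the more abundant. Summed over 8 rows it had 71.7, 69.6 and 75.3 RPKM in sh-luc and 72.7, 60.4 and 59.7 RPKM in sh-IUR-5. Library 1 of sh-IUR-5 lay within the control range, and the other 2 lay under it. BAX fell by 0.38 ± 0.08 on the log2 scale with TMM (SE, edgeR adjusted p = 0.0025), and its log2 fold change was -0.18 with total reads (edgeR adjusted p = 0.13). Its 666-base row NP_001278357.1 held 24.6 of the 72.2 RPKM in sh-luc and was the only BAX row to pass (log2 fold change -0.52, edgeR adjusted p = 4.25e-04), and without this row, an alternative chosen after the data were seen, the BAX sum had a log2 fold change of -0.29 (edgeR adjusted p = 0.025). The row test found no difference between BAX rows (edgeR adjusted p = 1.0).

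BAK1 (ENSG00000030110.14, chr6:33572547-33580293, minus strand), the other pore former, had 17.4, 18.8 and 17.1 RPKM in sh-luc and 23.4, 21.3 and 22.8 RPKM in sh-IUR-5. All knockdown libraries were higher than all controls by this scale, and BAK1 rose by a log2 fold change of 0.36 with total reads (edgeR adjusted p = 0.012). With TMM the log2 fold change was 0.16 ± 0.10 (SE, 95% interval -0.06 to 0.37), which did not pass (edgeR adjusted p = 0.22). BAK1 has near-identical pseudogene copies, and its coding bases overlap an exon of GGNBP1 on the other strand, so its reads are uncertain where the count took no strand.

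Counting all rows, the BH3-only gene with the most reads was BCL2L11 (ENSG00000153094.25, chr2:111119378-111168444, plus strand), and most of its reads lay on 1 of 27 rows. The 228-base row NP_619531.1 held 1123, 857 and 940 reads in sh-luc and 854, 697 and 665 reads in sh-IUR-5. The other 26 rows together held 108, 123 and 109 reads in sh-luc and 215, 180 and 196 in sh-IUR-5. The single row thus took 91.2%, 87.4% and 89.6% of the gene's reads in the controls and 79.9%, 79.5% and 77.2% in the knockdown libraries, with 95% Wilson intervals from 85.2% to 92.7% and from 74.3% to 82.2%, which cover counting error only.

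NP_619531.1 reached a mean of 194.5 RPKM in sh-luc, and no other BCL2L11 row exceeded a mean of 1.20 RPKM over the 6 libraries. A further row of 228 bases, NP_001191040.1, held 7 reads in all libraries together, and the files give no sequence that sets the 2 rows apart.

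The direction of BCL2L11 turned on this row. The full sum fell by 0.71 ± 0.08 on the log2 scale with TMM (SE, edgeR adjusted p = 4.67e-05). It fell by 0.50 with total reads (edgeR adjusted p = 3.00e-04) and by 0.33 with the GC and length dependence taken out (edgeR adjusted p = 0.0025). With TMM the row alone fell by 0.88 (edgeR adjusted p = 7.35e-07). The other 26 rows summed to 9.79, 11.2 and 10.1 RPKM in sh-luc and 14.3, 15.0 and 15.8 RPKM in sh-IUR-5, and these groups did not overlap. Without NP_619531.1, a sum chosen after the data were seen, the log2 fold change was 0.30 ± 0.14 (SE, edgeR adjusted p = 0.093) with TMM and 0.51 (edgeR adjusted p = 0.0087) with total reads. With 1 library left out in turn it ran from 0.22 to 0.39 (edgeR adjusted p from 0.040 to 0.29), and passed without sh-IUR-5 replicate 1. Among the members that the row test covered, only BCL2L11 had rows that moved differently (edgeR adjusted p = 0.024, called for 1.65% of 7451 genes). It did not cover PMAIP1, with 1 row, or BCL2, with too few reads. The 699-base row XP_005263610.1 changed by 1.30 on the log2 scale relative to the gene (edgeR adjusted p = 0.010, called for 0.948% of 34268 rows). The gene sum in that comparison is mostly NP_619531.1, which itself fell. Relative to the gene, NP_619531.1 changed by -0.09 on the log2 scale and did not pass the row test. By its own values the 699-base row held 34 reads in sh-luc and 68 in sh-IUR-5, with means of 0.74 and 1.22 RPKM. Among rows with a mean of at least 50 reads only NP_619531.1 was left, so the difference between rows could not be tested there.

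**Figure D2:**
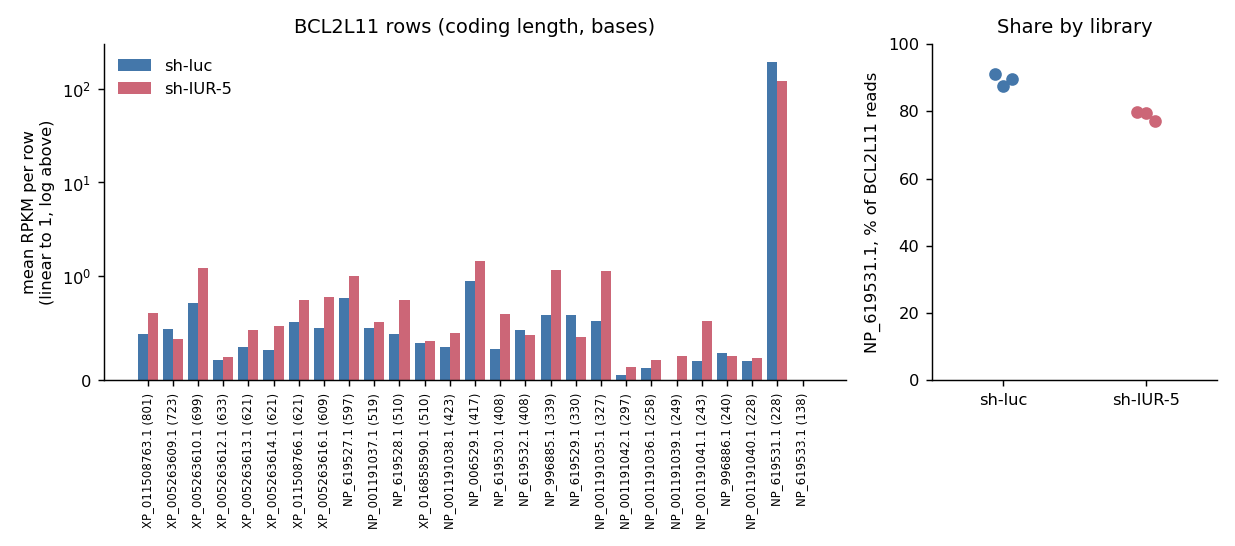
Left, mean RPKM of each BCL2L11 row by group, ordered by coding length in bases, on an axis that is linear to 1 and log above. Right, the share of BCL2L11 reads on NP_619531.1 in each library, which is 87.4% to 91.2% in sh-luc and 77.2% to 79.9% in sh-IUR-5. The row NP_619531.1 stands over all others in both groups and is lower in sh-IUR-5.

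BID, which is cut by caspase-8 and so links death receptors to mitochondria, had 55.8, 61.9 and 72.3 RPKM in sh-luc and 55.2, 58.3 and 58.0 RPKM in sh-IUR-5 (ENSG00000015475.19, chr22:17734138-17774770, minus strand, 7 rows). The groups overlapped, with sh-luc library 3 as the highest. BID fell by 0.33 ± 0.10 on the log2 scale with TMM (SE, edgeR adjusted p = 0.021), and the call was lost without sh-luc replicate 3 (log2 fold change -0.23, edgeR adjusted p = 0.11) and with total reads (log2 fold change -0.13, edgeR adjusted p = 0.32). The rows NP_001187.1 and NP_001231501.1 passed singly, and the row test found no difference among the 7 (edgeR adjusted p = 1.0).

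BAD, a BH3-only protein held inactive by survival-kinase phosphorylation, had 26.0, 25.7 and 28.0 RPKM in sh-luc and 27.0, 23.0 and 18.0 RPKM in sh-IUR-5 (ENSG00000002330.14, chr11:64269830-64284704, minus strand, 2 rows of 507 bases). Library 1 of sh-IUR-5 lay within the control range and libraries 2 and 3 lay under it. BAD fell by 0.43 ± 0.13 on the log2 scale with TMM (SE, edgeR adjusted p = 0.015), but not without sh-luc replicate 3 (log2 fold change -0.40, edgeR adjusted p = 0.059) or with total reads (log2 fold change -0.22, edgeR adjusted p = 0.21). Both rows passed with a log2 fold change of -0.41. Its coding bases overlap exons of GPR137 on the other strand.

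The genes of PUMA and NOXA, the BH3-only proteins best known as p53 targets, varied between libraries of a group. BBC3 (ENSG00000105327.18, chr19:47220822-47232766, minus strand) had 13.8, 10.9 and 15.6 RPKM in sh-luc and 20.5, 14.4 and 12.7 RPKM in sh-IUR-5, with overlapping groups and a log2 fold change of 0.07 ± 0.17 (SE, edgeR adjusted p = 0.76). PMAIP1 (ENSG00000141682.12, chr18:59899996-59904305, plus strand) had 1 row with 48, 31 and 15 reads in sh-luc and 79, 43 and 45 in sh-IUR-5. The control libraries of PMAIP1 alone spanned 4.32 to 12.5 RPKM, and the log2 fold change of 0.32 had a 95% interval of -0.35 to 0.99 (edgeR adjusted p = 0.43). It ran with 1 library left out from 0.0050 without sh-luc replicate 3 to 0.70 without sh-luc replicate 1 (edgeR adjusted p = 0.99 and 0.097), and was 0.15 without sh-IUR-5 replicate 1. Neither gene passed with TMM or with total reads.

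**Figure D3:**
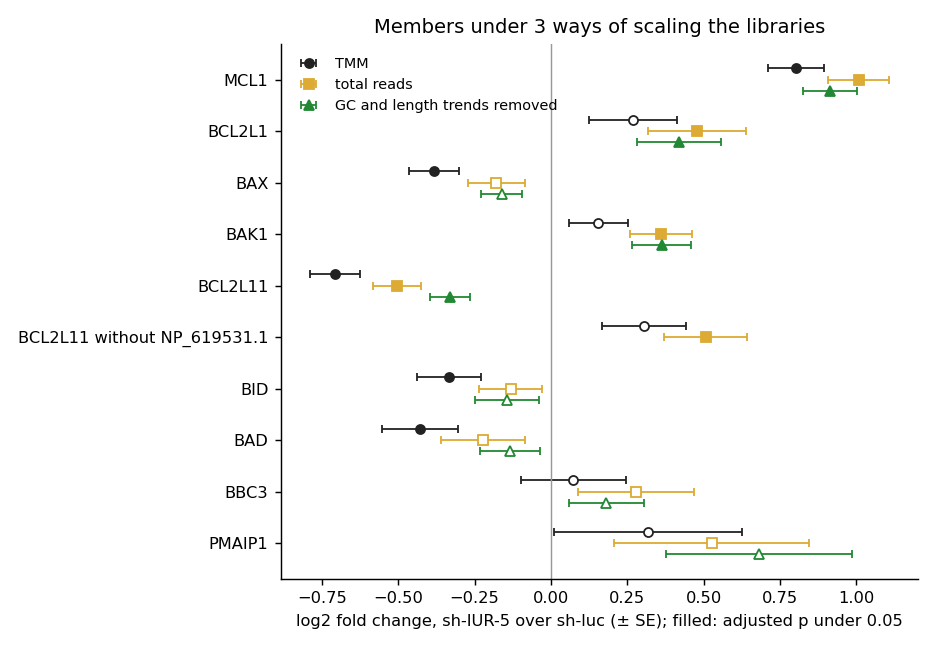
Log2 fold change (sh-IUR-5 over sh-luc) of each member with its SE, from edgeR with TMM scaling, with total reads, and with the smooth dependence of each library on GC content and coding length taken out (19.1% of genes higher and 22.3% lower); filled symbols have an adjusted p under 0.05. MCL1 lies from 0.80 to 1.01 in all 3 fits, BAX, BID and BAD are filled only with TMM, BCL2L1 and BAK1 only in the other 2 fits, and BCL2L11 changes side without its row NP_619531.1 (2 fits shown).

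The order of the mean levels changed for 1 member. BCL2L11 was placed without NP_619531.1, and its full sum had means of 204.9 RPKM in sh-luc and 135.9 RPKM in sh-IUR-5. In sh-luc the mean summed RPKM ran from BAX (72.2) and BID (63.3) through BAD (26.6), MCL1 (24.9), BAK1 (17.8), BCL2L1 (14.3), BBC3 (13.4), the 26 BCL2L11 rows (10.3) and PMAIP1 (8.54) to BCL2 (0.31). BAX and BID overlapped, as did BAD and MCL1, and each neighbour from BCL2L1 to PMAIP1 overlapped the next. In sh-IUR-5, MCL1 (50.2) stood apart from BID (57.1) above it and BAD (22.7) under it. The other members kept the order of their means, but each neighbour from BAD to PMAIP1 overlapped the next there.

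Ratios between members within a library do not depend on library scaling, and they are given as a description, chosen after the data were seen. The ratio of MCL1 to BAX RPKM was 0.31, 0.37 and 0.35 in sh-luc and 0.76, 0.80 and 0.79 in sh-IUR-5. MCL1 to BAK1 was 1.28, 1.37 and 1.56 in sh-luc and 2.35, 2.26 and 2.07 in sh-IUR-5, and MCL1 to BID was 0.37 to 0.42 against 0.81 to 1.00. In each of these ratios the 3 knockdown libraries stood above the 3 controls. MCL1 alone already had groups that did not overlap, as did 44.7% (higher) and 12.3% (lower) of all single genes tested. The share over all pairs of genes was not computed. So did MCL1 to BCL2L1 (1.41 to 2.03 against 2.15 to 2.81), MCL1 to the 26 BCL2L11 rows (2.28 to 2.64 against 2.98 to 3.86) and BCL2L1 to BAX (0.17 to 0.22 against 0.28 to 0.35). The 2 pore formers shifted against each other, with BAX to BAK1 at 3.69 to 4.42 in sh-luc and 2.62 to 3.11 in sh-IUR-5, while MCL1 to PMAIP1 overlapped between the groups (1.79 to 6.17 against 3.63 to 4.51).

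**Figure D4:**
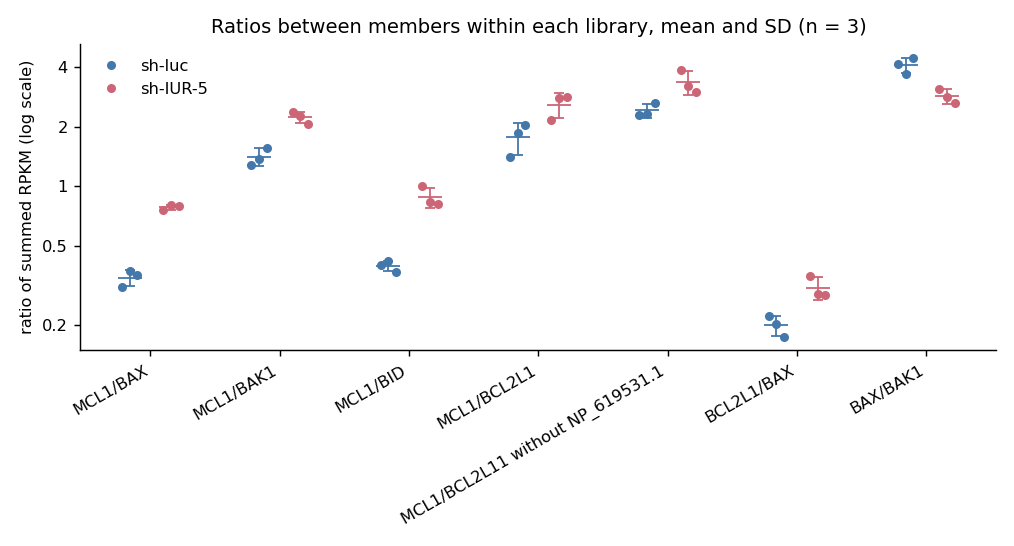
Ratio of the summed RPKM of 2 members within each library (points) on a log axis, with the mean and SD (n = 3 per group). MCL1 to BAX is 0.31 to 0.37 in sh-luc and 0.76 to 0.80 in sh-IUR-5. In each of the 7 ratios shown the groups do not overlap, with BAX to BAK1 the one that is lower in sh-IUR-5. MCL1 to PMAIP1, whose groups overlap, is not shown. Ratios that share MCL1 or BAX are not independent of each other. The ratios were chosen after the data were seen. Of all single genes tested, 44.7% (higher) and 12.3% (lower) had groups that did not overlap.

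Across the 68 member rows, 40 reached the mean RPKM of 1 required of a row, and 4 passed as higher (19.2% of all 38204 rows tested) and 6 as lower (18.1%). The 4 were the 3 MCL1 rows and 1 of BCL2L1, and the 6 were 2 each of BAD and BID and 1 each of BAX and BCL2L11. Only 2 of the 27 BCL2L11 rows reached the minimum. Promoters were searched for TTCNNNGAA, the motif bound by STAT factors, on both strands. None of the 15 RefSeq promoter windows (GRCh38.p14, 250 bases before to 50 after a start) of 9 members held it, against 7.66% of all 35116 windows of that length, and this says only that these letters are not in these windows. MCL1 had no window in that table.

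Other genes of the pathway were read from 4 lists, and the share of all tested genes that passed in the same direction stands beside each count. Of 13 further BCL2 family and related genes, 7 were tested, 2 were higher (23.2% of all genes), 1 was lower (20.4%) and 4 did not pass, with a median log2 fold change of 0.23 beside 0.02 for all genes. BNIP3L, a mitophagy receptor of maturing red cells, rose from 17.0 ± 0.77 to 28.9 ± 3.76 RPKM (SD, n = 3, log2 fold change 0.56, edgeR adjusted p = 8.10e-04), BCL2L13 rose (log2 fold change 0.23, edgeR adjusted p = 0.038), and BCL2L12 fell (log2 fold change -0.35, edgeR adjusted p = 0.0052). The pro-survival BCL2A1 and BCL2L10 and the BH3-only HRK had 0 reads in all libraries. With total reads 5 were higher (39.5% of all genes) and 0 lower (9.64%), and without sh-luc replicate 2 or 3 or sh-IUR-5 replicate 1 or 2 only 1 gene was higher. With the dependence on GC content and coding length taken out, BCL2L13 and BCL2L12 did not pass.

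Downstream of the mitochondria, 5 of 18 genes of the caspase route were higher (23.2% of all genes), 7 lower (20.4%) and 6 did not pass, with a median log2 fold change of -0.02. APAF1, the scaffold of the apoptosome, rose from 2.22 ± 0.33 to 4.42 ± 0.10 RPKM (SD, n = 3, log2 fold change 0.72, edgeR adjusted p = 6.32e-04). The caspase inhibitor XIAP rose as well (log2 fold change 0.60, edgeR adjusted p = 0.0054). ENDOG, a mitochondrial nuclease, fell from 136.7 ± 5.34 to 100.5 ± 8.85 RPKM (SD, n = 3, log2 fold change -0.64, edgeR adjusted p = 5.00e-05), and so did the inhibitor BIRC5 (log2 fold change -0.27, edgeR adjusted p = 0.0059). With total reads 8 were higher (39.5% of all genes) and 2, among them ENDOG, were lower (9.64%), and without sh-luc replicate 3 the number lower was 4. BIRC5 did not pass with total reads (log2 fold change -0.06, edgeR adjusted p = 0.43) or with the GC and length dependence taken out.

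In the death receptor route 2 of 10 genes were higher (23.2% of all genes), 1 lower (20.4%) and 7 did not pass, with a median log2 fold change of 0.16. They were CASP8, the caspase that cuts BID (log2 fold change 0.67, edgeR adjusted p = 0.038), the kinase RIPK1 (log2 fold change 0.39, edgeR adjusted p = 0.0061) and the adaptor TRADD (log2 fold change -0.39, edgeR adjusted p = 0.043). Of 19 known controllers of the members, 8 were higher (23.2% of all genes), 3 lower (20.4%) and 8 did not pass, with a median log2 fold change of 0.27. BTRC, a ubiquitin ligase subunit (log2 fold change 0.60), and YWHAZ, a 14-3-3 protein that holds phosphorylated BAD (log2 fold change 0.57), rose (edgeR adjusted p = 4.08e-04 and 6.85e-05). The stress factors DDIT3 (log2 fold change -0.51) and ATF4 (log2 fold change -0.45) fell, as did DYNLL1, a dynein light chain known to bind BIM (log2 fold change -0.25).

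STAT5A rose from 33.6 ± 1.60 to 47.0 ± 5.56 RPKM (SD, n = 3, log2 fold change 0.28, edgeR adjusted p = 0.012) and STAT5B from 33.0 ± 3.10 to 53.5 ± 8.39 RPKM (log2 fold change 0.49, edgeR adjusted p = 0.0015). With total reads 11 controllers were higher (39.5% of all genes) and 1, ATF4, was lower (9.64%). In the death receptor route 4 were then higher and 0 lower, against the same shares, and each library left out but sh-luc replicate 3 left 1 gene higher, while leaving out sh-luc replicate 1 or 3 or sh-IUR-5 replicate 2 or 3 left 0 lower. CASP8, RIPK1, TRADD and DYNLL1 did not pass with the GC and length dependence taken out, and DDIT3, DYNLL1 and TRADD did not with total reads.

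**Figure D5:**
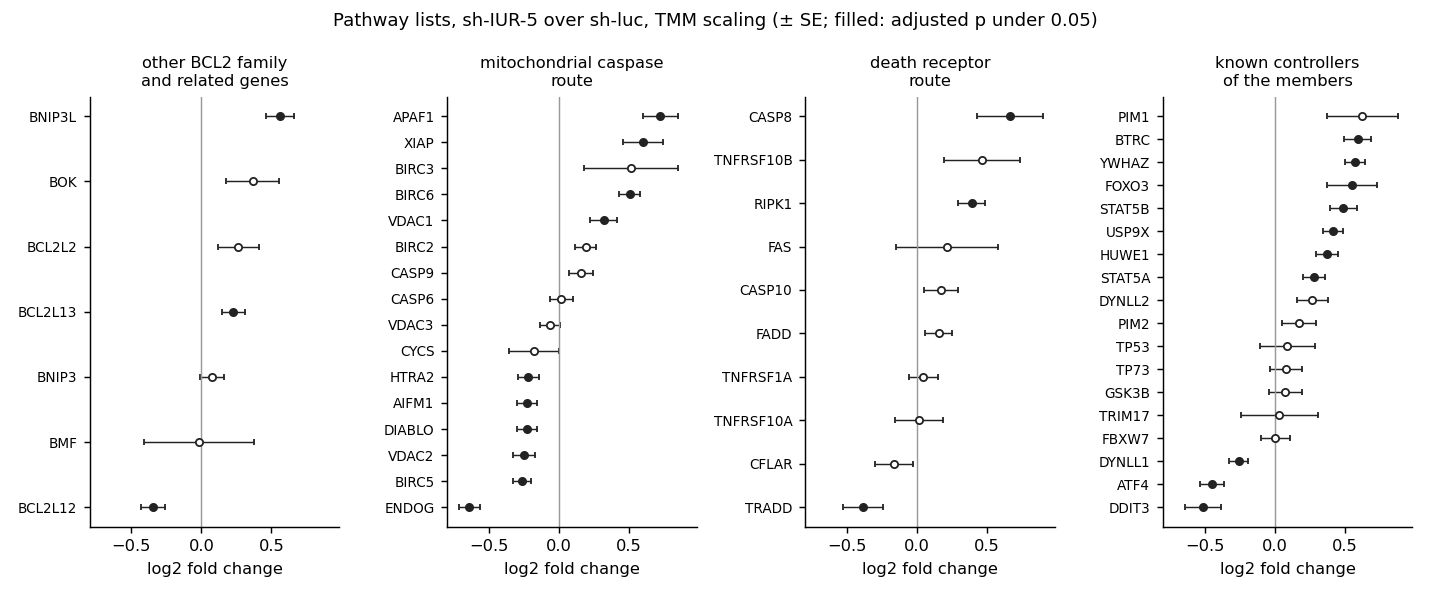
Log2 fold change (sh-IUR-5 over sh-luc, edgeR with TMM) with its SE for the reported genes of the 4 pathway lists that were tested; filled points have an adjusted p under 0.05. APAF1 (0.72), CASP8 (0.67) and BTRC (0.60) lie to the right among the filled points, and ENDOG (-0.64) and DDIT3 (-0.51) to the left.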

How the data were processed

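RNA-seq of 3 sh-IUR-5 and 3 sh-luc libraries of K562 cells was analysed, grouped by the sample labels. Per the submitters' processing notes CASAVA 1.8, Trimmomatic 0.32, Bowtie2 2.1.0 and SAMtools 0.1.19 were used with hg38. How reads shared by isoforms were assigned, and the use of strand, are not given in the sources used here. The authors deposited raw read counts for each RefSeq protein accession with their RPKM, and each RPKM value was checked to be the count divided by row length and total reads. Row lengths are coding lengths. The authors' table of their own comparison, with pooled counts, pooled RPKM, fold changes, p-values and q-values, was not used.

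Accessions were matched to genes with the RefSeq gene list (64.7% of rows, with 83.9% to 84.8% of reads), and counts were summed per gene. edgeR 4.0.16 (R 4.3.3; TMM, quasi-likelihood test, two-sided) was fitted on the 11556 genes with a mean of at least 10 reads, and on 38204 rows with a mean RPKM of at least 1, with Benjamini-Hochberg adjustment over all of them and a threshold of 0.05. Differences between rows of a gene were tested with diffSpliceDGE in edgeR, each row against its gene sum, on rows with a mean of at least 10 reads. Single RPKM values used exact permutation tests. The edgeR, DESeq2 and limma gene fits, the row fit and the test between rows were tried on simulated counts. The fits with a block, a series term or GC and length trends were not. The biological coefficient of variation was 8.67% and limits the precision more than the depth of 21023739 to 31481109 reads for abundant genes. Alternatives used DESeq2 1.42.0, limma 3.58.1, mgcv 1.9.3 (GC and length trends), other scalings and filters, and left-out libraries. Similarity was searched with BLAST 2.17.0. Named genes are all 10 members, up to 3 genes with the largest rise and 3 with the largest fall per list among those that passed, and STAT5A and STAT5B; BCL2A1, BCL2L10 and HRK were named after their values were seen. The results for 3 list genes and 1 sequence are not reported here. The members, lists and tests were chosen with earlier results of these data known.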

Additional observations from a re-analysis of the deposited data

How the results depend on the processing

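With DESeq2's size factors, DESeq2, no minimum count, a minimum of 50 reads or NP accessions only, 1 member was higher and 4 lower, as reported, and with the accession with the most reads 1 was higher and 3 lower. Over all genes these fits called 2183 to 2731 higher and 2135 to 2534 lower, of 9932 to 15058 tested. With total reads, and with limma on log2(RPKM + 0.1) or log2(RPKM + 1), 3 members were higher and 1 lower, and so they were with GC and length trends removed and no replicate block. Of all genes, 39.5% were higher and 9.64% lower with total reads, and 19.1% and 22.3% with the trends removed. With limma 4399 to 4421 of 11556 genes were higher and 1139 to 1143 lower. With 1 library left out in turn, 1 member was higher and 2 to 4 lower, with 2 without sh-luc replicate 3. Of all 11556 genes, 2207 to 2550 were then higher and 1875 to 2453 lower. Reversed values were the log2 fold change of BCL2L1 at the accession with the most reads (-0.016), of BCL2L11 without NP_619531.1 (0.30), and of BBC3 without sh-luc replicate 2 (-0.06) or sh-IUR-5 replicate 1 (-0.13), against a highest of 0.17 with 1 library left out and of 0.28 with total reads. With total reads the member rows higher were 9 and lower were 2, against 13203 and 3281 of all 38204 rows. The lists then had 5, 8 and 4 genes higher (other BCL2 family, caspase route, death receptors) and 0, 2, 0 and 1 lower (with controllers last). The shares of all genes were 39.5% and 9.64%. With libraries left out, the lists gave 1 to 2 higher and 1 lower (other BCL2 family), 4 to 6 and 4 to 7 (caspase route), 1 to 2 and 0 to 1 (death receptors), and 7 to 9 and 3 (controllers). The member rows gave 3 to 5 higher and 4 to 8 lower. Of all 38204 rows, 5704 to 6864 were then higher and 5506 to 6718 lower. The cause was not tested. With rows of at least 50 reads, 0 members had a difference between rows, because BCL2L11 then had 1 row left and could not be tested.

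The replicate numbers did not pair the libraries by the check used (correlations of deviations of 0.39, 0.14 and 0.03 for numbers 1, 2 and 3). With the replicate block 2 members (BCL2L1 added, edgeR adjusted p = 0.041) were higher and 4 lower, and 6123 in place of 5045 genes passed (3231 higher and 2892 lower). With the label series as a term it was 2 higher and 4 lower, against 3387 and 3068 of 11556 genes. With the block and GC and length trends removed together it was 4 higher and 2 lower, against 2752 and 3232 of 11428 genes. PMAIP1 passed only in that last fit. BCL2L11 without NP_619531.1 passed with the block (adjusted p = 0.048) and with the series term (adjusted p = 0.034). No count for a list or the member rows moved by over 1.5 times with the block. sh-luc library 1 and sh-IUR-5 library 1 alone correlated best with their own number. Low counts limit BCL2, PMAIP1 and most BCL2L11 rows.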
